A study of Mus musculus with 11 samples.

Results

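Bone morphogenetic protein (BMP) ligands and their antagonists were followed as 10 genes among the 24427 with a gene symbol in the deposited tables. The members were taken by symbol: the ligand genes Bmp2, Bmp3, Bmp4, Bmp5 and Bmp7, the related ligand gene Gdf11, the secreted antagonist genes Grem1, Nog and Chrd, and Bambi. All 10 had a row in both tables. Developing kidneys of CFW mice, which are outbred, were dissociated and sorted on a fluorescent reporter, and messenger RNA of the sorted cells was sequenced. Kidneys at E16.5 carrying Six2TGC/+, a transgene in which Six2 regulatory DNA drives a fluorescent Cre fusion, were separated into Six2+ cells (n = 3 libraries) and the Six2- remainder (n = 3), which holds all other kidney cell types mixed. For Cited1+ cells (n = 3) the E16.5 kidneys carried the reporter allele Cited1tagRFP/+ in place of that transgene, and for P2 Six2+ cells (n = 2) the Six2TGC/+ kidneys were from postnatal day 2. No wild-type cells and no other treatment entered these groups, and a reporter protein can outlast the transcript that drives it.

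BMPs are secreted dimers of the TGF-beta superfamily. They bind pairs of serine/threonine kinase receptors, which phosphorylate Smad1, Smad5 and Smad9, and these enter the nucleus with Smad4 and switch on target genes such as those of the Id family. Noggin (Nog), chordin (Chrd) and gremlin (Grem1) bind the ligands outside the cell and keep them from their receptors, and Bambi is a receptor-like membrane protein without a kinase. In the mouse kidney, Bmp7 from the cap mesenchyme and ureteric bud keeps nephron progenitors alive, and Grem1 restrains Bmp4 so that the ureteric bud can grow out.

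All levels were treated as RPKM, reads scaled to transcript length and to the depth of the library, so different genes are set side by side. Most of the low values examined lay near whole reads at a depth chosen to fit them, about 16550000 to 43900000 reads per library. Six2 stood at 314.8, 351 and 354 in the E16.5 Six2+ libraries and at 2.72, 2.90 and 16.98 in the Six2- libraries, the last being replicate 3. Cited1 had a mean of 201 in Cited1+ libraries and 3.76 in P2 Six2+ libraries, and Six2 one of 313 and 137. The summed level of 8 nephron progenitor genes was 907 to 1023 in E16.5 Six2+ and 65.2 to 123.9 in Six2- libraries. It was 937 to 1026 in Cited1+ and 466 to 468 in P2 Six2+ libraries. Of the markers of other kidney cells, the summed level of 10 interstitial stroma genes was 59.9 to 81.2 in E16.5 Six2+ libraries and 2108 to 3107 in Six2- libraries, and that of 8 endothelial genes was 0.49 to 2.98 and 41.6 to 76.1. Red cell genes varied most among Six2- libraries, with a sum over 7 genes of 825 to 8539. In bulk samples, fewer cells of a type and less RNA per cell cannot be told apart. Nothing in the labels tells whether replicate libraries came from separate animals, so the spread behind each p-value is that among libraries and may be technical only.

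The first comparison, within 1 table, asked how E16.5 Six2+ cells differ from the other kidney cells of the same stage. Bmp7 and Bmp2 were higher in Six2+ cells, Chrd and Bmp3 were lower, and Bmp4, Gdf11 and Bambi did not pass the test. The other 3 members, Bmp5, Grem1 and Nog, had a mean below 1 over the 6 libraries and were left out of the test. Differences were taken on the log2(value + 1) scale, where low genes appear to change less than they do, and the test was limma with Benjamini-Hochberg adjustment over all genes. Thus 2 of the 7 members tested were higher and 2 lower, and 38.6% of all 11882 genes tested were called, 20.5% higher and 18.1% lower; with libraries rescaled to the same total, 42.3% of the calls were higher in place of 53.2%. Bmp3 passed the filter on low values only through the Six2- group, where it is high, so the share of members called is given as a description.

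Bmp7 was the most abundant member in Six2+ cells. Its level was 74.5, 59.7 and 66.2 in the 3 Six2+ libraries and 7.44, 6.07 and 8.42 in the 3 Six2- libraries. The groups were far apart, with a ratio of means of 9.14. The log2 difference was 3.03 (SE 0.15), with an adjusted p of 1.05e-06 in limma. Bmp2, which signals through the same receptors as Bmp4, had a level of 5.19, 4.36 and 6.75 in Six2+ libraries and 2.31, 3.10 and 2.89 in Six2- libraries. These groups also did not overlap, and the log2 difference was 0.76 (SE 0.17, adjusted p = 0.00829, limma).

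Bmp4, a ligand of the stroma around the ureteric stalk and also of early nephrons, was shared between the sorts. Its level was 10.2, 13.4 and 13.6 in Six2+ libraries and 12.4, 11.7 and 8.34 in Six2- libraries. The ranges overlapped, and the log2 difference of 0.19 (SE 0.18, limma adjusted p = 0.418) was close to its error. Gdf11, whose product signals through the activin branch of the superfamily and in the mouse takes part in ureteric bud formation, lay between 6.35 and 7.77 in Six2+ libraries and between 8.11 and 9.08 in Six2- libraries. Every Six2- library was above every Six2+ library, yet the log2 difference of -0.25 (SE 0.13) did not pass (limma adjusted p = 0.159).

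Bmp3, a ligand that opposes BMP signalling rather than activating it, was scarce in Six2+ cells. Its level was 0.147, 0.0657 and 0.116 in Six2+ libraries and 3.13, 2.63 and 2.40 in Six2- libraries. The groups were widely separated, with a log2 difference of -1.74 (SE 0.15, limma adjusted p = 2.69e-05). Bmp5, a close relative of Bmp7, was lower still, between 0.0331 and 0.0880 in Six2+ libraries and between 0.817 and 1.83 in Six2- libraries. At the mean length of its annotated transcripts, these Six2+ values stand for about 2.28 to 7.39 reads and the Six2- values for 46.1 to 161 reads. In a fit with no filter on low values, in which 30.6% of genes were called, the log2 difference of Bmp5 was -1.18 (SE 0.17, limma adjusted p = 0.00388).

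Among the antagonists, Chrd took the opposite side from Bmp7. Its level was 0.895, 1.13 and 1.44 in Six2+ libraries and 7.48, 7.41 and 11.1 in Six2- libraries. No library of the Six2+ group came near the lowest Six2- library. The log2 difference was -2.15 (SE 0.18), with an adjusted p of 2.74e-05 in limma. Nog and Grem1 were scarce. Nog lay between 0.926 and 1.21 in Six2+ libraries and between 0.321 and 0.713 in Six2- libraries, without overlap. With no filter its log2 difference was 0.40 (SE 0.12) and did not pass (limma adjusted p = 0.0570). Grem1 lay between 0.174 and 0.478 in Six2+ libraries and between 0.0553 and 0.118 in Six2- libraries, or about 27.8 to 83.3 and 10.1 to 12.6 reads. With no filter its log2 difference was 0.32 (SE 0.09, limma adjusted p = 0.0394).

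Bambi, whose product lowers the response to BMP and TGF-beta at the cell surface, had a level of 2.60, 3.91 and 3.07 in Six2+ libraries and 5.55, 6.04 and 3.63 in Six2- libraries. The lowest Six2- library, replicate 3, lay inside the Six2+ range. The log2 difference of -0.52 (SE 0.20) did not pass (limma adjusted p = 0.0647). With the replicate number as a block, which pairs the libraries here, it did (limma adjusted p = 0.0241, in a fit that called 52.5% of all genes tested), as it did without Six2- replicate 3 (limma adjusted p = 0.0113) and with libraries shifted to the same median (limma adjusted p = 0.0466). Over the other alternatives its adjusted p reached 0.213. The 10 stroma genes, of which 10 of 10 were lower in Six2+ cells, and the 8 endothelial genes, of which 7 were tested and 7 were lower, moved with Chrd, Bmp3 and Bmp5. So did genes of macrophages and leukocytes (6 of 7 tested lower), red cells (6 of 6) and podocytes (5 of 6). Proximal tubule genes (3 of 3 lower) and ureteric bud and collecting duct genes (5 of 7 lower, 1 higher) did as well. Genes of the renal vesicle and early nephron were mixed (2 of 8 tested higher, 3 lower). Nephron progenitor genes went mostly the other way (7 of 8 tested higher, 1 lower). Many of the marker genes called lower, among them each endothelial gene tested, had a mean below 1 in Six2+ cells. They passed the filter through the Six2- group, so these marker counts are a description. The part of all these cells in these results was not tested.

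**Figure D1:**
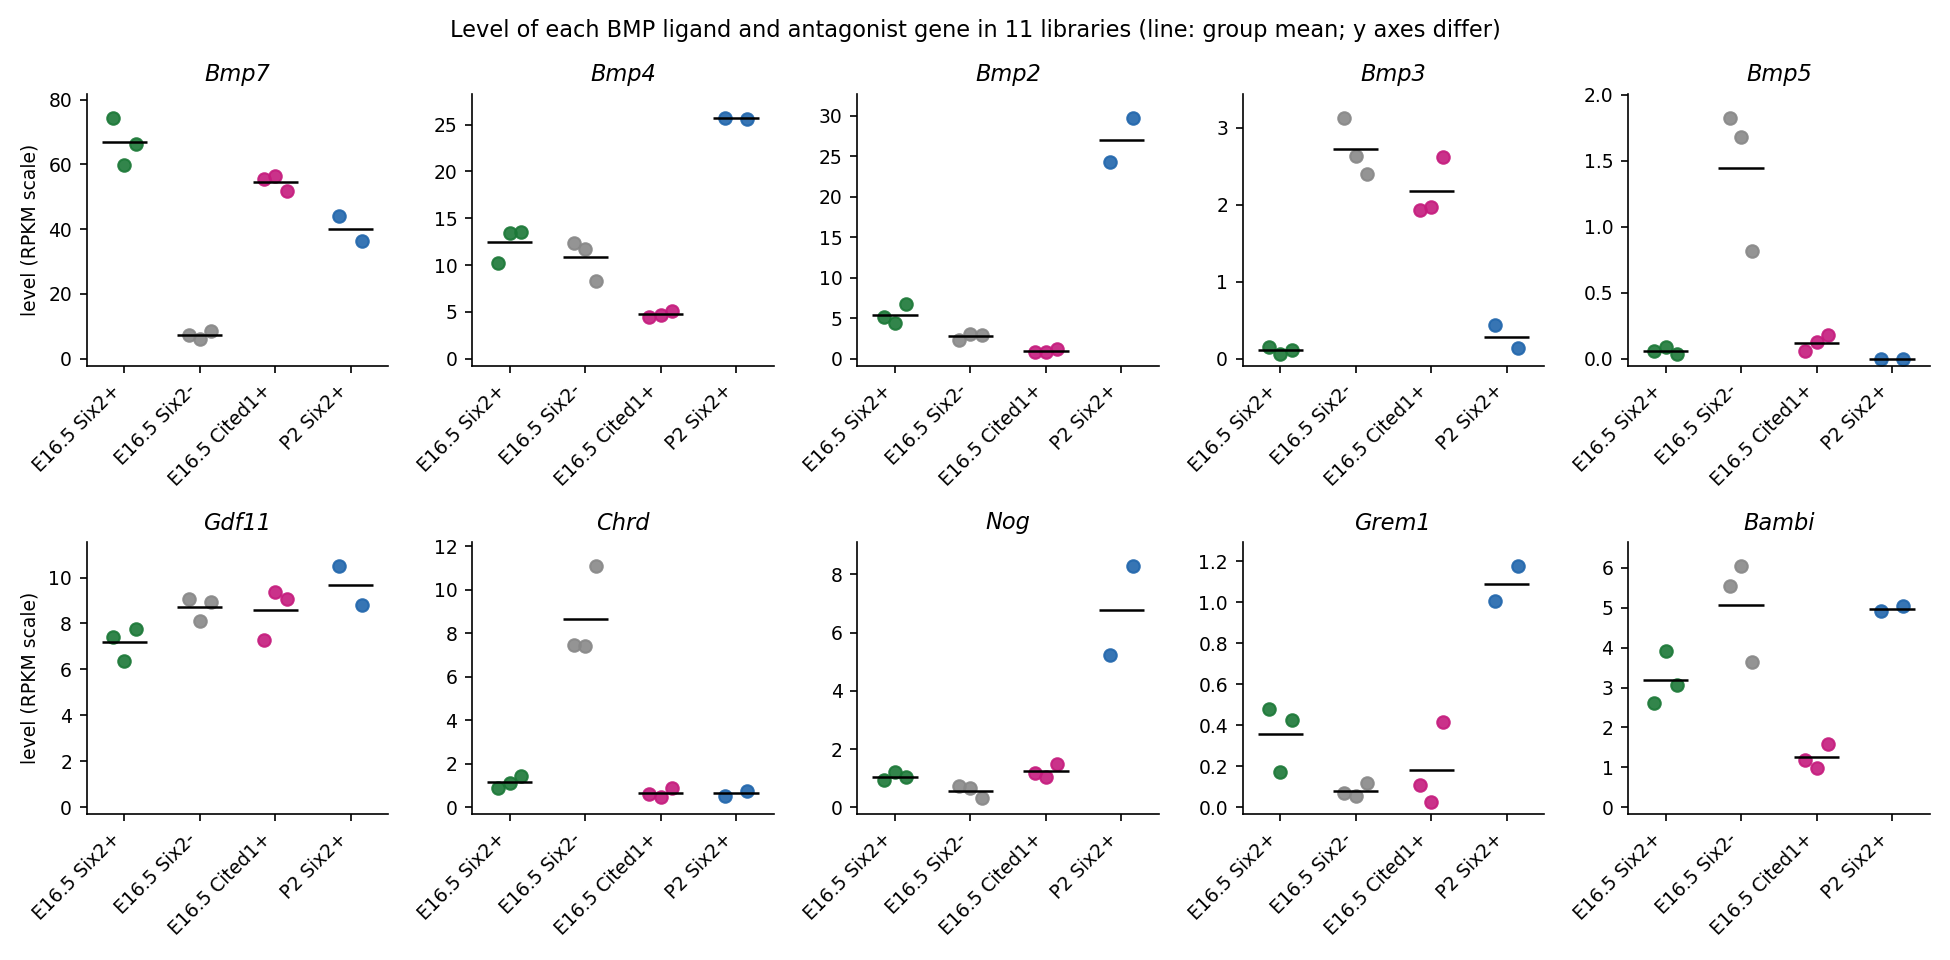
Level of each member on the RPKM scale (y axis, different for each gene) in the 11 libraries, as points by group, with a line at each group mean. Bmp7 is high in all 3 reporter-positive groups, with means of 66.8, 54.6 and 40.1 against 7.31 in Six2- cells; Chrd is high in Six2- cells alone, and Bmp2, Bmp4, Nog and Grem1 have their highest mean at P2.

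The second comparison, within the other table, was between Cited1+ cells of E16.5 and Six2+ cells of P2. Stage, sorting marker and reporter differ together here and cannot be told apart. Bmp2, Bmp4, Nog and Bambi were lower in Cited1+ than in P2 cells, Bmp3 and Bmp7 were higher, and Gdf11 did not pass. Bmp5, Grem1 and Chrd had a mean below 1 over the 5 libraries and were left out of the test. Of the 7 members tested, 4 were lower and 2 higher, and 29% of all 11876 genes tested were called, 12.7% lower and 16.3% higher. Over all genes the balance turned with the scaling, from 1930 higher and 1512 lower to 1546 and 1782 with libraries rescaled to the same total and 1602 and 1740 with libraries shifted to the same median. Bmp2 and Bmp3 passed the filter only through the group where they are high, so no support is drawn from that share.

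Bmp2 showed the widest gap of the members. Its level was 0.840, 0.805 and 1.19 in the 3 Cited1+ libraries and 24.4 and 29.8 in the 2 P2 libraries. The P2 mean was 28.7 times the Cited1+ mean, and the log2 difference was -3.85 (SE 0.16, limma adjusted p = 1.50e-05). Bmp4 moved the same way, from 4.43, 4.67 and 5.06 in Cited1+ libraries to 25.7 and 25.6 at P2. The libraries of each group were close to each other, and the log2 difference was -2.22 (SE 0.11, limma adjusted p = 2.53e-05).

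Bmp7 went the other way by a small amount. Its level was 55.5, 56.4 and 51.8 in Cited1+ libraries and 44.0 and 36.2 at P2. The groups did not overlap, and the log2 difference was 0.44 (SE 0.12, limma adjusted p = 0.0291). This call did not hold without Cited1+ replicate 1 (log2 difference 0.43, limma adjusted p = 0.109), without Cited1+ replicate 3 (0.48, adjusted p = 0.0512) or without P2 replicate 2 (0.30, adjusted p = 0.175). It also ended when libraries were rescaled to the same total (0.36, adjusted p = 0.0773) or shifted to the same median (0.37, adjusted p = 0.0602), and with no filter (0.44, adjusted p = 0.0660).

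Bmp3 was present in Cited1+ cells and low at P2. Its level was 1.93, 1.98 and 2.62 in Cited1+ libraries and 0.441 and 0.134 at P2, a log2 difference of 1.31 (SE 0.19, limma adjusted p = 0.00324). Bmp5 was listed at 0 in both P2 libraries and lay between 0.0575 and 0.177 in Cited1+ libraries. A level of 3 reads would be 0.0597 and 0.0831 in the P2 libraries, and the lowest Cited1+ value lies under both. With no filter the log2 difference was 0.16 (SE 0.06) and did not pass (limma adjusted p = 0.142). Gdf11 lay between 7.29 and 9.36 in Cited1+ libraries and at 10.5 and 8.82 at P2. The ranges overlapped, with a log2 difference of -0.16 (SE 0.14, limma adjusted p = 0.433).

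The antagonists Nog and Grem1 both had their higher level at P2. Nog stood at 1.19, 1.05 and 1.48 in Cited1+ libraries and at 5.24 and 8.28 at P2, a log2 difference of -1.77 (SE 0.20, limma adjusted p = 0.00103). Grem1 stood at 0.107, 0.0247 and 0.414 in Cited1+ libraries and at 1.01 and 1.18 at P2. Replicate 3 held most of the Grem1 signal of the Cited1+ group, at about 50.5 reads against 10.1 and 2.52, and was still below both P2 libraries. In the fit with no filter, in which 11% of genes were called, the log2 difference of Grem1 was -0.84 (SE 0.16, limma adjusted p = 0.0416). Chrd lay between 0.484 and 0.864 in Cited1+ libraries and at 0.533 and 0.758 at P2, so the groups overlapped at this low level. Bambi stood at 1.19, 0.995 and 1.58 in Cited1+ libraries and at 4.91 and 5.04 at P2, and its log2 difference was -1.41 (SE 0.16, limma adjusted p = 0.00111).

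Markers of other cells differed between these sorts as well. The summed level of 8 genes of the renal vesicle and early nephron, among them Wnt4, Lhx1 and Jag1, was 105 to 113 in Cited1+ libraries and 963 to 995 at P2, and 6 of the 8 were lower in Cited1+ cells and none higher. It moved with Bmp2, Bmp4, Nog, Grem1 and Bambi. The summed level of 10 ureteric bud and collecting duct genes was 87.1 to 114 in Cited1+ libraries and 40.5 to 42.1 at P2, with 5 of 8 tested higher in Cited1+ cells, and that of 10 stroma genes was 129.9 to 137 and 44.8 to 52.4, with 7 of 8 tested higher and 1 lower. These moved with Bmp3, as did genes of nephron progenitors (6 of 8 tested higher, 1 lower), red cells (4 of 4 higher) and proximal tubule (2 of 3 higher). Genes of podocytes (3 of 5 tested lower) and of macrophages and leukocytes (3 of 4 lower) moved with Bmp2, Bmp4, Nog and Bambi. None of 3 endothelial genes tested passed. Of the defining markers in these lists only the stroma gene Tbx18 was at 0, in both P2 libraries. Some of the marker genes called had a mean below 1 in the group where they were low, among them the 3 macrophage and leukocyte genes. They passed the filter through the other group, so these marker counts are a description. The part of these cells in the results was not tested.

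**Figure D2:**
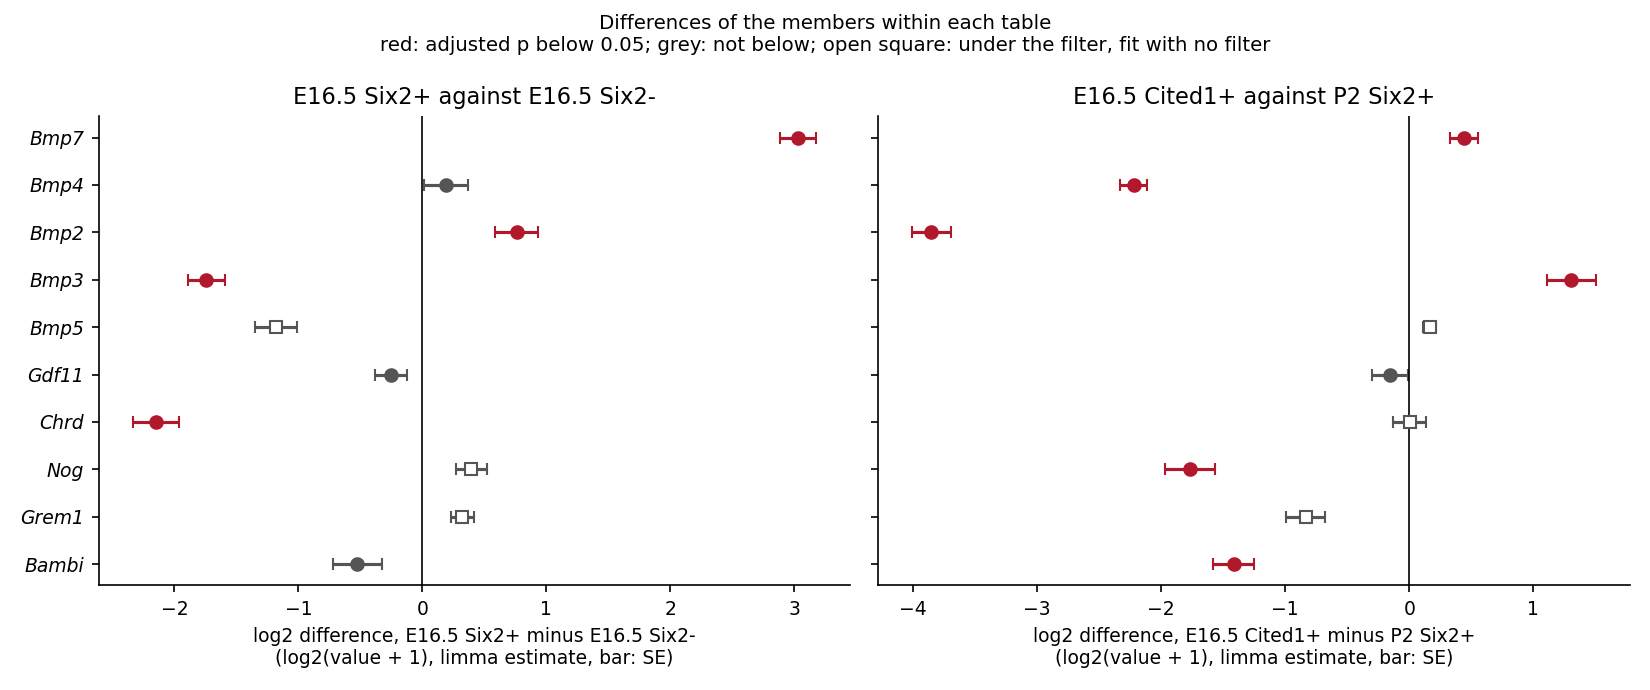
Log2 difference of each member (x axis, limma estimate on log2(value + 1), bars for the SE) in the 2 comparisons. Red points have an adjusted p below 0.05, grey points do not, and open squares are members under the filter on low values, taken from the fit with no filter. Bmp7 lies at 3.03 in the left panel and 0.44 in the right, and Bmp2 at 0.76 and -3.85.

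Set side by side over the 4 groups, the members had different orders of level. The groups of different tables were not tested against each other. Bmp7 was highest in E16.5 Six2+ cells (66.8 ± 7.40, SD, n = 3), then in Cited1+ cells (54.6 ± 2.44, n = 3), P2 Six2+ cells (40.1 ± 5.52, n = 2) and Six2- cells (7.31 ± 1.18, n = 3), and no neighbours in this order overlapped. Bmp2 and Bmp4 had the same order of group means, with P2 highest (27.1 ± 3.84 and 25.7 ± 0.119), followed by E16.5 Six2+ cells (5.43 ± 1.21 and 12.4 ± 1.88), Six2- cells (2.77 ± 0.409 and 10.8 ± 2.17) and Cited1+ cells (0.945 ± 0.213 and 4.72 ± 0.321). For Bmp4 the E16.5 Six2+ and Six2- libraries overlapped, and for Bmp2 no neighbours did.

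Nog was highest at P2 (6.76 ± 2.15), and its Cited1+ (1.24 ± 0.221) and E16.5 Six2+ libraries (1.05 ± 0.146) overlapped above Six2- libraries (0.569 ± 0.215). Grem1 had the same leading group (1.09 ± 0.121 at P2), with the E16.5 Six2+ and Cited1+ libraries overlapping, as did the Cited1+ and Six2- libraries. Chrd ran differently, from Six2- cells (8.65 ± 2.10) to E16.5 Six2+ cells (1.16 ± 0.274), Cited1+ cells (0.651 ± 0.194) and P2 cells (0.645 ± 0.159), and only the last pair overlapped. Bambi was alike in Six2- (5.08 ± 1.28) and P2 libraries (4.97 ± 0.0912), which overlapped. Its mean was lower in E16.5 Six2+ (3.19 ± 0.662) and Cited1+ cells (1.26 ± 0.300). The E16.5 Six2+ and Six2- libraries of Bambi overlapped too, and their difference did not pass.

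Bmp3 libraries of Six2- (2.72 ± 0.377) and Cited1+ cells (2.18 ± 0.389) overlapped, as did those of P2 (0.287 ± 0.217) and E16.5 Six2+ cells (0.109 ± 0.0409). Bmp5 was led by Six2- cells (1.44 ± 0.546). Gdf11 varied least, with group means from 7.18 to 9.66 and overlap between every pair of neighbours.

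The make-up of the ligand pool followed from these levels. Summed over Bmp2, Bmp3, Bmp4, Bmp5 and Bmp7, the ligand level was 77.6 to 90.1 in E16.5 Six2+ libraries, 60.8 to 64.0 in Cited1+ libraries, 91.7 and 94.6 at P2 and 22.9 to 27.1 in Six2- libraries. Bmp7 supplied 76.4% to 82.6% of it in E16.5 Six2+ libraries and 85.1% to 88.4% in Cited1+ libraries. At P2 it supplied 46.5% and 39.5%, with Bmp4 at 27.2% and 27.9% and Bmp2 at 25.8% and 32.5%. In Six2- libraries Bmp4 supplied 36.5% to 46.4% and Bmp7 24.1% to 36.8%. These shares are of the 5 genes summed, which include Bmp3, a ligand that opposes BMP signalling, and leave out Bmp6. Bmp6 stood at 0.598 ± 0.143 in E16.5 Six2+, 4.64 ± 0.793 in Six2-, 1.92 ± 0.232 in Cited1+ and 4.36 ± 0.127 in P2 cells.

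The antagonist pool of Nog, Chrd and Grem1 changed its leading gene. Its summed level was 2.30 to 2.89 in E16.5 Six2+ libraries, 1.56 to 2.76 in Cited1+ libraries, 8.13 to 11.5 in Six2- libraries and 6.78 and 10.2 at P2. Chrd made up 90.5% to 96.2% of it in Six2- libraries, while Nog made up 77.3% and 81.1% at P2. These 3 genes are not all of the BMP antagonists: Nbl1 alone stood at 16.8 ± 1.33 in E16.5 Six2+, 18.1 ± 3.78 in Six2-, 22.7 ± 4.69 in Cited1+ and 6.74 ± 1.41 in P2 cells, above the sum of the 3 in each E16.5 group. No ratio of ligand to antagonist transcripts is given, since it turns on which antagonists are counted. These are sums of transcript levels, with no measure of protein.

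**Figure D3:**
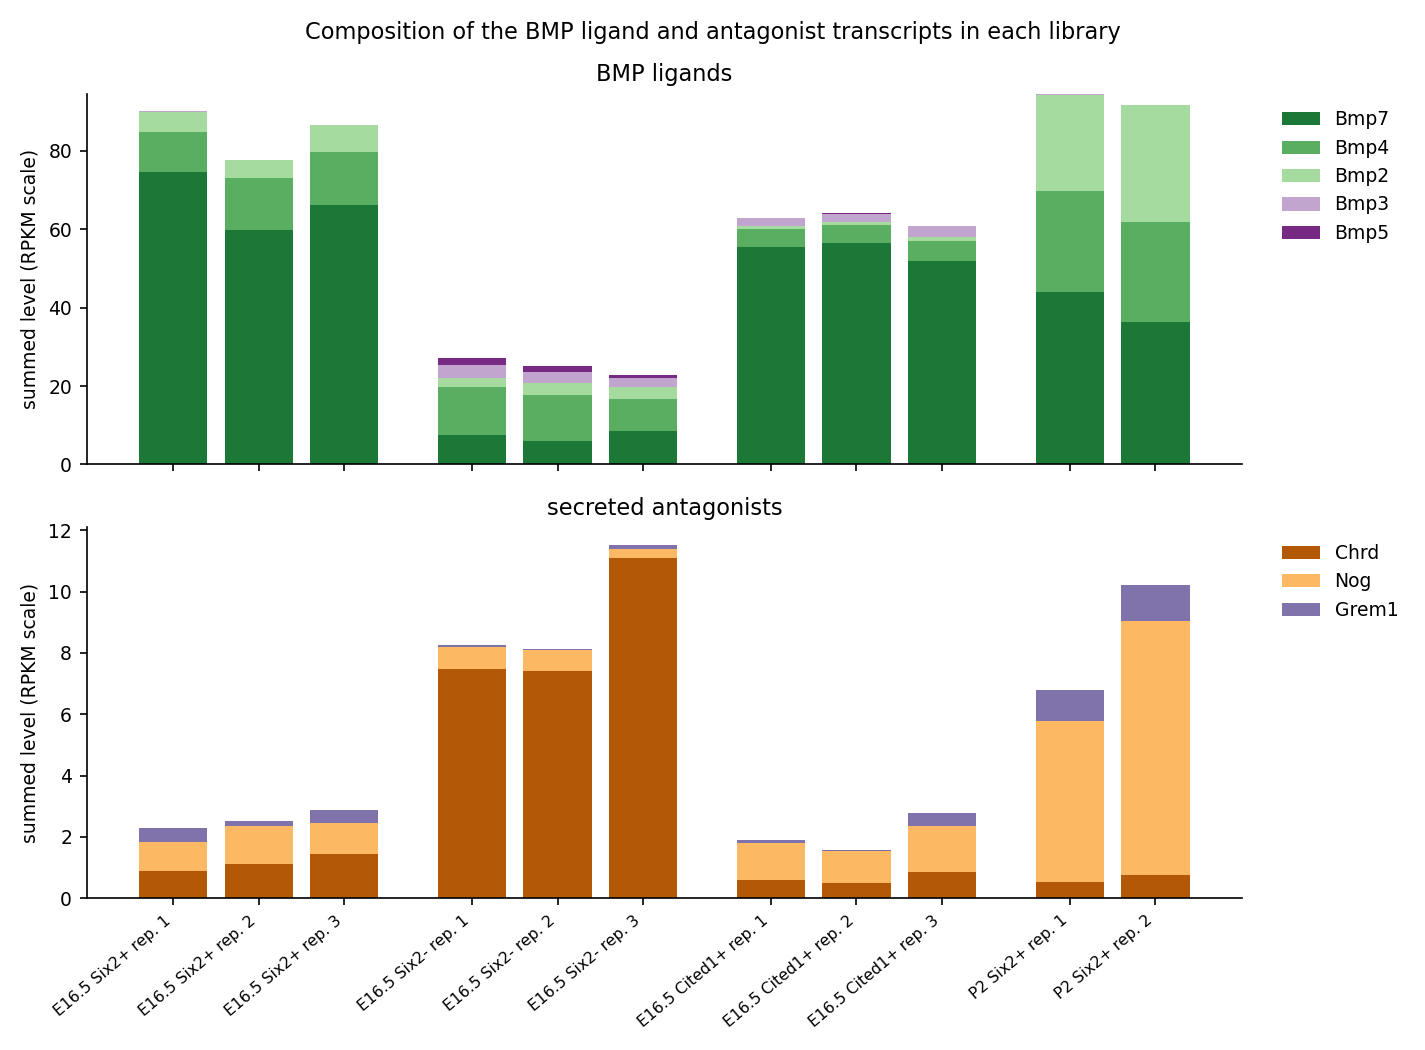
Summed level on the RPKM scale (y axis) of 5 BMP ligand genes (upper bars) and 3 secreted antagonist genes (lower bars) in each of the 11 libraries. Bmp7 fills most of the bar in E16.5 Six2+ and Cited1+ libraries; Chrd fills 90.5% or more of the antagonist bar in Six2- libraries, and Nog 77.3% or more at P2.

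In GRCm38, the assembly also called mm10, the positions of 9 members were as follows. On chromosome 2 are Grem1 (113748675 to 113758648), Bmp2 (133552159 to 133562896) and Bmp7 (172868012 to 172940321). Bmp4 lies on chromosome 14 from 46383525 to 46390669, Chrd on chromosome 16 from 20731425 to 20742384, Nog on chromosome 11 from 89300638 to 89302559, Bmp3 on chromosome 5 from 98854415 to 98884053, Bmp5 on chromosome 9 from 75775365 to 75900316, and Gdf11 on chromosome 10 from 128880524 to 128891718. Each of the 9 is a protein-coding gene. Exons of Bmp4, Bmp5 and Chrd overlap a gene on the opposite strand, which for Chrd is the thrombopoietin gene Thpo with a mean value of 0.152. Since the sources used here do not say whether counting used strand, reads of these pairs cannot be told apart.

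RefSeq promoter windows matched 5 of the 10 members. Those of Chrd, Grem1 and Bmp4 are shown because Chrd and Grem1 encode antagonists of the Bmp4 product and had their highest levels in different groups, Chrd in Six2- cells and Grem1, like Bmp4, at P2. Each run is the 250 bases before the start site, 5′ to 3′ on the gene's strand in GRCm38. The Chrd start site used lies inside the annotated gene, and the runs were not checked against annotated exons. Capitals mark GGCGCC, the core of a BMP response element, which reads the same on both strands.
Chrd, chr16:20732877-20733126, plus strand: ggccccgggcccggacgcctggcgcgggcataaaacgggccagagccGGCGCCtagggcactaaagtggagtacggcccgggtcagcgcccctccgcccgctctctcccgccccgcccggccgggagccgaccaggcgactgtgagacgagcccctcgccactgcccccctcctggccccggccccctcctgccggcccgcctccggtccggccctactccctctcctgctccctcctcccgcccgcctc
Grem1, chr2:113758649-113758898, minus strand: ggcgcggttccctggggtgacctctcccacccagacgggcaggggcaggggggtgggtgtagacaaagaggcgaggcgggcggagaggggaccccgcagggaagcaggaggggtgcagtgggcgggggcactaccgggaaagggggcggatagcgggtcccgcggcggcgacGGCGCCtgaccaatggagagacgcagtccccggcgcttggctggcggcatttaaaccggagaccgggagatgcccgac
Bmp4, chr14:46390670-46390919, minus strand: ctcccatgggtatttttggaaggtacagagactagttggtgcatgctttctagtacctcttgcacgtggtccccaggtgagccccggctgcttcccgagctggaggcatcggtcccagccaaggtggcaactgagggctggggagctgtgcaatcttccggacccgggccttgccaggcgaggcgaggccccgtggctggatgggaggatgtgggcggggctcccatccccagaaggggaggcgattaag
Chrd and Grem1 held 1 match each and Bmp4 none, and the windows of Bmp5 and Gdf11, not shown, held none either. Of all 32851 promoter windows of this length, not matched for GC content, 9.59% held the motif. The letters TCAGGTTTC, a MEF3 site, bound by Six2 and its relatives, were searched on both strands, did not occur in the 5 windows of the members and occurred in 0.387% of all windows. The Gdf11 window alone among the 5 held TATAAA, which 12.4% of windows hold. GC content was 78.0% in the Chrd window, 72.0% in that of Grem1 and 63.2% in that of Bmp4, with a median of 52.4% over all windows. A match is a description of letters and not of binding.

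Other genes of the pathway were taken from lists of ligands, receptors, secreted modulators, Smads and targets, 73 genes in all. Between E16.5 Six2+ and Six2- cells 49 were tested, of which 6 were higher and 19 lower; of all genes tested, 20.5% were higher and 18.1% lower. With the replicate block 9 were higher and 21 lower. Of the 19 lower genes 12, and of the 6 higher genes 1, had a mean below 1 in the group where they were low and passed the filter through the other group, so the counts are a description. Their median log2 difference was -0.32, against 0.12 for all genes tested. Of the 4 other ligands tested, Gdf10 (0.237 ± 0.115 against 4.69 ± 1.72; log2 difference -2.16, SE 0.23) and Bmp6 (-1.81, SE 0.16) were lower. Gdf1, which shares a transcript with Cers1, was higher (0.67, SE 0.20, limma adjusted p = 0.0291), a call lost without any of 5 single libraries (adjusted p 0.0621 to 0.103), with no filter (0.0654) and after rescaling to the same total (0.0685).

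Among 12 receptor genes tested, 2 rose and 4 fell in Six2+ cells relative to Six2- cells. The lower ones were led by Eng (-3.57, SE 0.21) and Acvrl1 (-3.04, SE 0.17), co-receptor and receptor of endothelial cells, and Eng is also on the list of endothelial markers. Acvr2b, a type II receptor, was higher (14.8 ± 4.33 against 3.41 ± 0.211; 1.80, SE 0.21). The main type I receptor gene Bmpr1a stood at 36.0 ± 8.37 and 41.6 ± 6.81 and did not pass (limma adjusted p = 0.391).

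Of 13 secreted modulators tested, 8 were lower and 2 higher in Six2+ cells, and 4 of the 8 and 1 of the 2 passed the filter through 1 group only. Bmper, a secreted BMP-binding protein, was the highest of the risers, at 49.6 ± 5.48 against 5.23 ± 0.923 (3.03, SE 0.15). Smoc2, a matrix protein, stood at 0.716 ± 0.303 against 39.3 ± 12.8 (-4.52, SE 0.23), and Fstl1, a follistatin-like protein, at 73.2 ± 10.6 against 328 ± 32.1 (-2.15, SE 0.16). For the 8 receptor, modulator and other ligand genes named here with a log2 difference beyond 1, the limma adjusted p was 0.000162 or less.

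None of the 10 Smad and Smurf genes passed in this comparison, and the lowest adjusted p was 0.0571, for Smad3 (limma). Of 10 target genes tested, 1 was higher and 5 lower, led by the T-box genes Tbx2 (-4.84, SE 0.16) and Tbx3 (-3.74, SE 0.18) and by Gata2 (-2.77, SE 0.21), each with a limma adjusted p of 1.21e-05 or less. The Id genes, the usual readout of the pathway, did not pass: Id1 stood at 168 ± 55.0 against 117 ± 31.3 and Id3 at 407 ± 52.5 against 308 ± 20.1 (limma adjusted p = 0.162 and 0.0811).

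Between Cited1+ and P2 cells 48 of the 73 genes were tested, with 11 higher and 15 lower in Cited1+ cells. Of all genes tested, 16.3% were higher and 12.7% lower. Of the 11 higher genes 1, and of the 15 lower genes 2, had a mean below 1 in the group where they were low. They passed the filter through the other group, so the counts are a description. Tbx3 and Chrdl2 are among these genes. The median log2 difference of the 48 was -0.14, against 0.07 for all genes tested. Among the Smads 3 of 10 were lower and none higher: Smad9, a signal-carrying Smad (3.77 ± 0.338 against 16.3 ± 2.11; -1.86, SE 0.13, limma adjusted p = 0.000130), and the inhibitory Smads Smad6 (-0.88, SE 0.11) and Smad7 (-0.75, SE 0.15). The Smad7 call ended without P2 replicate 2 (limma adjusted p = 0.0854) and with no filter (0.0506). Of 11 targets 5 were lower and 4 higher. Id4 (9.92 ± 1.197 against 56.4 ± 3.21; -2.40, SE 0.12), Hey1, also a Notch target (-2.40, SE 0.12), and Atoh8 (-2.35, SE 0.15) were lower, each with a limma adjusted p of 7.09e-05 or less. Id2 was also lower (73.3 ± 10.7 against 157 ± 38.0, log2 difference -1.08, SE 0.18, limma adjusted p = 0.00534). Id1 stood at 52.1 ± 30.3 against 144 ± 88.1 and Id3 at 155 ± 61.5 against 193 ± 53.4, and neither passed (limma adjusted p = 0.0754 and 0.430). Gata2, Gata3, Tbx2 and Tbx3 were the higher ones, by 0.70 to 1.66 on the log2 scale. Gata3 is also on the list of ureteric markers.

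Of 11 receptor genes 3 were higher and 1 lower. The type I receptor Bmpr1b was lower in Cited1+ cells (-1.09, SE 0.14), and Acvr2b (0.87, SE 0.11) and the co-receptor Rgma (0.79, SE 0.13) were higher. Of 13 secreted modulators 3 were higher and 5 lower. Sostdc1 (11.6 ± 2.89 against 2.15 ± 1.14; 2.02, SE 0.27) and Nbl1 (1.61, SE 0.20), both BMP antagonists, were higher, while the chordin-like gene Chrdl2 (-1.59, SE 0.19) was lower. Of the 3 other ligands tested, Bmp6 was lower (-0.88, SE 0.14) and Gdf1 higher (0.54, SE 0.16, limma adjusted p = 0.0396); the Gdf1 call was lost without any of Cited1+ replicates 1 to 3 or P2 replicate 1 (adjusted p 0.0552 to 0.169).

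**Figure D4:**
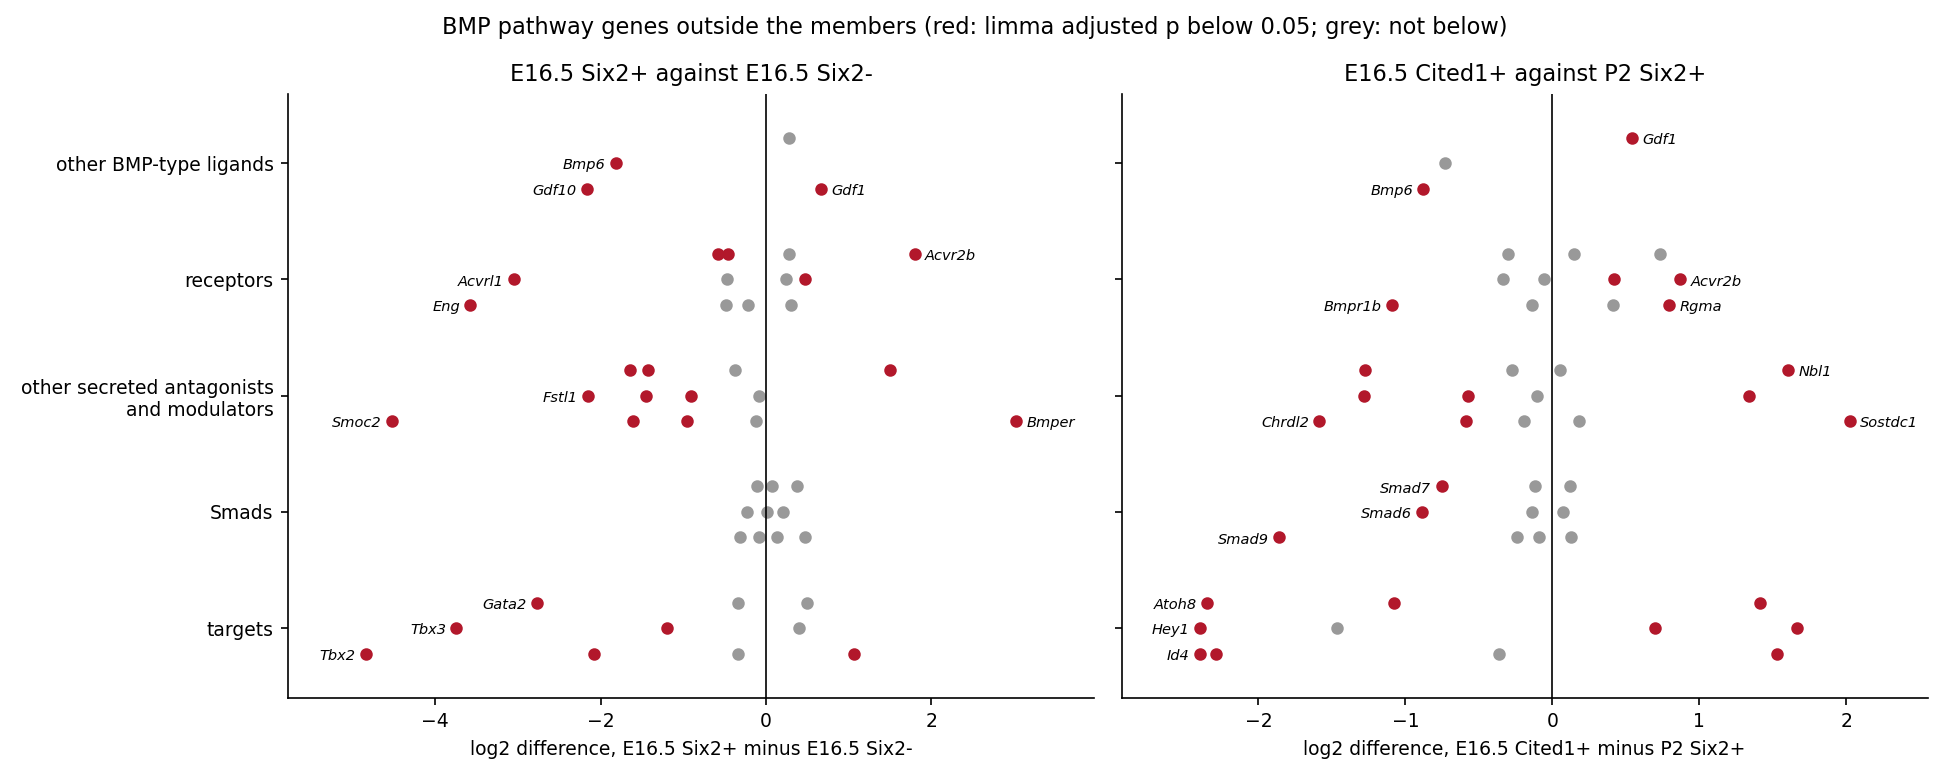
Log2 difference (x axis) of each tested BMP pathway gene outside the 10 members, by list (rows), in the 2 comparisons; red points have a limma adjusted p below 0.05, grey points do not, and points are spread vertically only to separate them. In the left panel no Smad gene is red; in the right panel Smad9, Smad6 and Smad7 lie at -1.86, -0.88 and -0.75.

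The genes whose pattern over the 11 libraries was most like that of a member were found by the root mean square distance between profiles of log2(value + 1), each centred on its own mean, among 8585 genes with a mean of at least 5. For Bmp7 these were Gldc, the glycine decarboxylase (distance 0.20), the phosphatase inhibitor gene Ppp1r1a (0.22) and the dystrobrevin gene Dtna (0.25), where Bmp7 itself varied by 1.25 about its mean. For Bmp2, which varied by 1.32, they were the heparan sulfate sulfatase gene Sulf1 (0.37), Trim16 (0.38) and the secreted protein gene Scube3 (0.41). For Bmp4, which varied by 0.76, they were the plastin gene Pls3 (0.21), Emid1 (0.24) and the imprinted noncoding RNA H19 (0.25). The libraries fall into 4 groups, so these distances describe 4 group levels more than 11 separate points, and they cross the 2 tables.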

How the data were processed

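Per the labels' protocols, libraries of sorted kidney cells were made with a stranded mRNA kit. Per the submitters' processing notes, Partek, TopHat2, bcl2fastq 2.17 and the mouse build mm10 were used; the counting of reads and its use of strand are not given in the sources. The authors deposited 1 value per gene and library and called it TPM, but the values were treated as RPKM. Their sums differed between libraries with a coefficient of variation of 8.95%, and length-weighted sums by 2.92%. Of low values of genes with 1 annotated transcript, 52.6% to 62.6% fell within 0.05 of whole reads. Evenly spread values would give 10% at a depth set beforehand. Here the depth was chosen to fit these same values, so 10% is not the chance rate. The authors also deposited a fold ratio and a p-value per gene. For the members the ratio in the table of Cited1+ and P2 cells equals that of the Cited1+ mean to the first P2 library alone. In the table of E16.5 Six2+ and Six2- cells it equals the ratio over all libraries for each member. The authors' ratios and p-values were not used for either table, and their p-values were not checked. Rows named by a date (27 per table) were left out, with 0.125% to 0.215% of the values.

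The test was limma (version 3.58.1, R 4.3.3), run within each table on log2(value + 1) with its variance trend. Genes whose mean over the libraries compared was under 1 were left out, p-values were adjusted over all remaining genes, and the threshold was 0.05. The fit was tested on simulated data. Same-numbered E16.5 Six2+ and Six2- libraries deviated together (correlations 0.40 to 0.47, every other pair at most 0.15), which is where their pairing comes from. The members and lists were chosen with earlier results of these data known. All members were named, with up to 3 passing genes of each list by size of difference. Id1, Id3, Smad3, Bmpr1a, Tbx18 and the levels of Nbl1 at E16.5 were named after their values were seen. So were Id2 in both comparisons, Id4 in the first, and the Gata and Tbx genes in the second. Read numbers given beside low values, and floors of 3 reads, use the mean length of annotated transcripts and cover counting error only. No gene had the same value above 0 in 2 libraries.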

Additional observations from a re-analysis of the deposited data

How the results depend on the processing

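Each member's log2 difference was recomputed with a pseudocount of 0.1, no filter, libraries rescaled to the same total or shifted to the same median, the replicate block, no mean-variance trend, and without each library in turn. No tested member and no pathway gene named by size of difference changed direction. The 2 higher and 2 lower members of the Six2+ comparison stayed at those numbers without single libraries, except that the lower ones ranged from 2 to 3, and the lower members of the Cited1+ comparison stayed at 4. The higher members of the Cited1+ comparison numbered 1 in place of 2 with no filter, when rescaled, when shifted to the same median and with the replicate block, and ranged from 1 to 2 without single libraries; Bmp7 was the gene lost (adjusted p = 0.0894 with the block, limma). The Cited1+ and P2 libraries share only a number, since same-numbered pairs correlated at 0.04 and -0.03. Among the members tested and the pathway genes named by size of difference, the block changed the calls of Bambi in the Six2+ comparison and of Bmp7 and Gdf1 in the Cited1+ comparison and no other; over all pathway genes it gave 9 higher and 21 lower in place of 6 and 19, and 8 and 16 in place of 11 and 15. Higher and lower pathway genes ranged without single libraries from 4 to 5 and 16 to 20 in the Six2+ comparison and from 8 to 11 and 13 to 16 in the Cited1+ comparison. Over all genes, rescaling gave 1546 higher and 2106 lower in the Six2+ comparison in place of 2440 and 2149, so 42.3% of calls were higher in place of 53.2%, leaving out Six2- replicate 2 gave 1618 higher and 1673 lower, and the block gave 3603 and 2632. In the Cited1+ comparison the block gave 895 higher and 868 lower in place of 1930 and 1512, and no filter gave 1139 and 1180, and without single libraries there were 791 to 3012 higher and 788 to 2145 lower; the cause was not tested. Some values under 1 rest on few reads, such as Bmp5 at 0.0331 in E16.5 Six2+ replicate 3 (about 2.28 reads) and Grem1 at 0.0247 in Cited1+ replicate 2 (about 2.52 reads). Others rest on more, such as Chrd at 0.895 in E16.5 Six2+ replicate 1 (about 102 reads).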
